A study of Mus musculus with 12 samples.

Results

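Bridge-like lipid transfer proteins were followed in ventricles of Vps13c-cKO mice and of WT mice through the read counts of the 10 genes that encode them. The genes were listed by name, with no value of theirs in the rule: Vps13c, its paralogs Vps13a, Vps13b and Vps13d, the autophagy genes Atg2a and Atg2b, and 4932438A13Rik, 2610507B11Rik, Uhrf1bp1 and Uhrf1bp1l, which newer annotations call Bltp1, Bltp2, Bltp3a and Bltp3b. All 10 had a row among the 21959 genes of the deposited count table, and all 10 passed the filter on low counts that left 12384 genes for testing. The series holds 6 Vps13c-cKO ventricles and 6 WT ventricles from male mice, 7 weeks old and on a chow diet. Per the series title the Vps13c knockout is specific to the heart. The driver of the deletion, the exons deleted, the strain, litters, preparation dates and whether WT mice carry a driver or a floxed allele are not stated in the labels. Each library is labelled as 1 mouse, and nothing in the labels ties mice to each other.

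Bridge-like lipid transfer proteins are very long rods with a hydrophobic groove along their length. They span the gap between organelles where membranes come close, and lipids are thought to slide along the groove in bulk between the membranes. VPS13C sits between the endoplasmic reticulum and late endosomes, lysosomes or lipid droplets, and loss of the human gene causes an early-onset form of Parkinson's disease. At the bridge ends work VAP proteins, which hold the rod at the endoplasmic reticulum, scramblases, which spread lipids over both leaflets, and small GTPases, which bring the rod to its organelle.

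The 6 Vps13c-cKO libraries held 12484523 to 14188716 counts and the 6 WT libraries 13348018 to 15562942 counts. Transcripts encoded in mitochondria took 30.6% to 32.2% of the counts in Vps13c-cKO ventricles and 29.2% to 31.4% in WT ventricles. The ventricular myosin light chain gene Myl2 averaged 5772 CPM (reads of a gene per 1000000 reads of the scaled library) in Vps13c-cKO ventricles and 6322 CPM in WT ventricles, while its atrial counterpart Myl7 lay between 0 and 0.353 CPM in 11 of the 12 libraries. The remaining library, WT 4, stood apart, with 29.3 CPM of Myl7 and 8.24 CPM of Sln, another atrial gene, which reached at most 0.0706 CPM elsewhere. WT 4 also had the lowest CPM of the 6 WT mice for each of the 10 genes, by 0.07 to 0.25 on the log2 scale below the WT mean. Over 12371 tested and annotated genes it was lowest for 18.4%, and over the 828 of them with a coding length of 4287 bases or more for 42.4%. The results for the 10 genes and for their partners were therefore also computed without WT 4.

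Vps13c was lower in every Vps13c-cKO ventricle than in any WT ventricle. It had 212 to 287 reads in the Vps13c-cKO libraries and 756 to 984 reads in the WT libraries. In CPM the lowest, median and highest values were 16.3, 18.1 and 20.3 in Vps13c-cKO ventricles, against 54.6, 61.8 and 68.6 in WT ventricles. The groups were far apart relative to their spread, with a mean of 18.2 ± 1.58 CPM in Vps13c-cKO ventricles and 61.9 ± 4.85 CPM in WT ventricles (SD, n = 6 each). Vps13c (ENSMUSG00000035284, chromosome 9) fell by 1.77 ± 0.06 on the log2 scale (SE), with an adjusted p of 4.47e-14 in edgeR's quasi-likelihood test with Benjamini-Hochberg adjustment. The Vps13c-cKO level was 29.4% of the WT level, and the 95% interval of the ratio ran from 0.269 to 0.322. Without WT 4 the log2 fold change was -1.80, with an adjusted p of 6.72e-14 in the same test.

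Among all tested genes Vps13c had the smallest p. A single tested gene had a lower log2 fold change, Myl4, an atrial light chain gene that did not pass the test and whose WT mean rests on 31.3 CPM in WT 4, against 0.509 to 1.46 CPM in the other 5 WT mice. In RNA from whole ventricle, fewer cells of a type and less RNA per cell cannot be told apart, and counts per gene do not assign the remaining Vps13c reads to exons or to cell types. Markers of ventricular cardiomyocytes summed to 52694 to 57273 CPM in Vps13c-cKO ventricles and 55040 to 59785 CPM in WT ventricles, and 3 of the 8 were called lower. Fibroblast markers summed to 899 to 993 CPM in Vps13c-cKO ventricles and 792 to 904 CPM in WT ventricles, and 3 of the 6 were called higher. Calls on the marker lists went in both directions, some lower, as for Vps13c, and some higher. Of the macrophage markers 2 of 5 were called higher, with sums of 117 to 134 CPM in Vps13c-cKO ventricles and 83.3 to 124 CPM in WT ventricles. Of the endothelial markers 1 of 5 was called lower, with sums of 629 to 653 CPM in Vps13c-cKO ventricles and 628 to 721 CPM in WT ventricles. Smooth muscle and pericyte markers summed to 1027 to 1092 CPM in Vps13c-cKO ventricles and 1087 to 1311 CPM in WT ventricles, with 1 of 5 called higher and 2 called lower. None of the 3 red blood cell markers was called, with sums of 223 to 691 CPM in Vps13c-cKO ventricles and 263 to 425 CPM in WT ventricles. Atrial markers summed to 13.4 to 28.5 CPM in Vps13c-cKO ventricles, to 76.7 CPM in WT 4 and to 3.76 to 7.28 CPM in the other 5 WT ventricles, and of the 2 that could be tested Nppa, also a gene of the stressed ventricle, was called higher. Over all tested genes 10.7% were called, 5.65% higher and 5.1% lower, and no marker list was tested against these shares. The part of these marker differences in the remaining Vps13c level was not tested.

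Vps13c was the only one of the 10 genes called, 1 lower and 0 higher, where a call is an adjusted p under 0.05 over all tested genes. Of all tested genes 10.7% were called, 5.65% higher and 5.1% lower. Vps13c was also the only member whose 2 groups of mice did not overlap, which held for 4.93% of all tested genes, 2.18% lower and 2.75% higher. The other 9 genes had a median log2 fold change of -0.02, against 0.00 over all tested genes. Summed over these 9 genes, the level was 789 to 863 CPM in Vps13c-cKO ventricles and 751 to 844 CPM in WT ventricles, so the ranges of the sum overlapped.

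**Figure D1:**
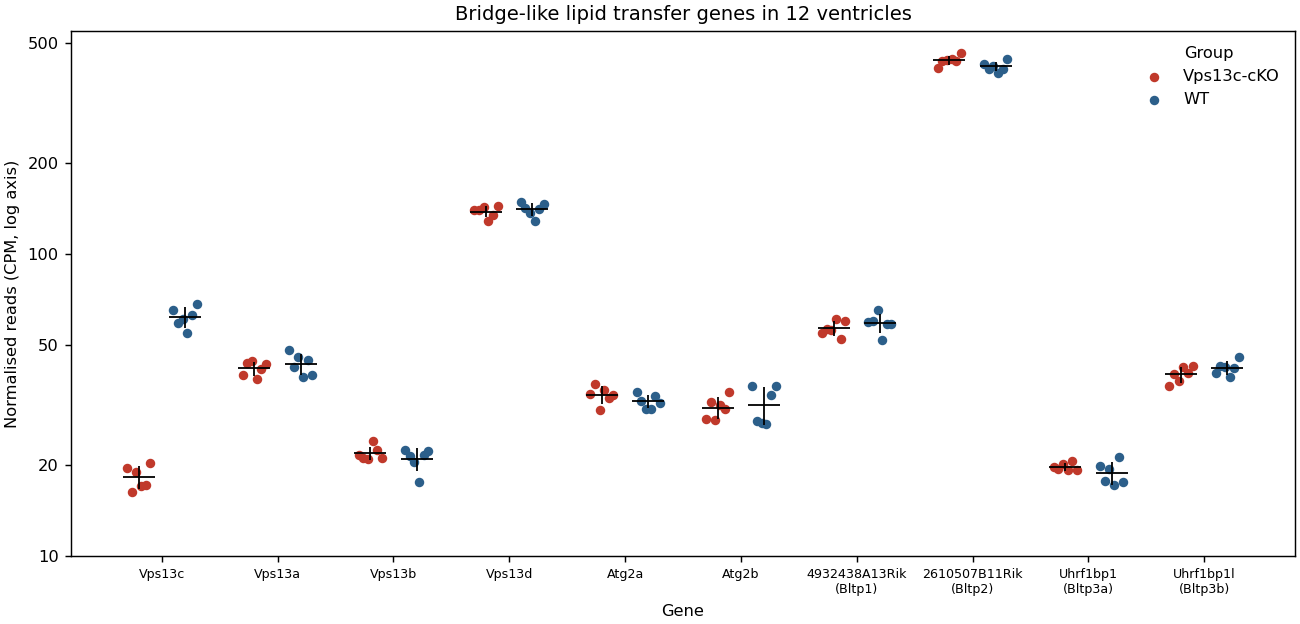
Normalised reads (CPM, log axis) of the 10 genes in 6 Vps13c-cKO ventricles (red) and 6 WT ventricles (blue), 1 point per mouse, with the mean as a horizontal bar and ± 1 SD as a vertical line. The Vps13c points lie between 16.3 and 20.3 CPM in Vps13c-cKO ventricles and between 54.6 and 68.6 CPM in WT ventricles, while the points of each of the other 9 genes overlap.

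No paralog of Vps13c was called, and for each of them the ranges of the groups overlapped. VPS13A, the protein altered in chorea-acanthocytosis in humans, bridges the endoplasmic reticulum to mitochondria and lipid droplets. Vps13a (ENSMUSG00000046230, chromosome 19) had a lowest, median and highest value of 38.5, 42.4 and 44.2 CPM in Vps13c-cKO ventricles, against 39.2, 43.4 and 48.0 CPM in WT ventricles. Its log2 fold change was -0.05 ± 0.05 (SE), with an adjusted p of 0.664 in edgeR's quasi-likelihood test. The 95% interval placed the Vps13c-cKO level between 0.895 and 1.05 times the WT level.

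VPS13B acts at the Golgi apparatus, and loss of the human gene causes Cohen syndrome. Vps13b (ENSMUSG00000037646, chromosome 15) had 21.0, 21.3 and 23.9 CPM as lowest, median and highest values in Vps13c-cKO ventricles, against 17.6, 21.5 and 22.4 CPM in WT ventricles. The Vps13c-cKO mice lay within or close to the WT range, and the log2 fold change was 0.06 ± 0.06 (SE; edgeR quasi-likelihood, adjusted p = 0.625), with a ratio between 0.951 and 1.14. Without WT 4 that fold change was 0.02. Exons of Vps13b overlap those of Cox6c, a cytochrome oxidase subunit gene, by 250 bases on the opposite strand. Cox6c was counted at 390 CPM in Vps13c-cKO ventricles and 413 CPM in WT ventricles, and without a stated strand setting reads from the overlap cannot be assigned to 1 of the genes.

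VPS13D works at mitochondria and peroxisomes, to which the GTPase Miro brings it. Vps13d (ENSMUSG00000020220, chromosome 4) was the paralog with the most reads. Its lowest, median and highest values were 129, 139.9 and 144 CPM in Vps13c-cKO ventricles, against 129, 141.8 and 149 CPM in WT ventricles. The ranges nearly coincided, and the log2 fold change was -0.02 ± 0.04 (SE; edgeR quasi-likelihood, adjusted p = 0.775). The 95% interval of the ratio was 0.927 to 1.04.

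The ATG2 proteins carry lipids from the endoplasmic reticulum into the growing autophagosome, where each can largely stand in for the other. Atg2a (ENSMUSG00000024773, chromosome 19) had a lowest, median and highest value of 30.3, 34.3 and 37.1 CPM in Vps13c-cKO ventricles, against 30.7, 32.3 and 34.9 CPM in WT ventricles. Its log2 fold change was 0.07 ± 0.05 (SE; edgeR quasi-likelihood, adjusted p = 0.462), and the ratio lay between 0.973 and 1.13. Atg2b (ENSMUSG00000041341, chromosome 12) had 28.1, 31.1 and 35.0 CPM as the same values in Vps13c-cKO ventricles, against 27.4, 31.1 and 36.6 CPM in WT ventricles. Its log2 fold change was -0.03 ± 0.08 (SE; edgeR quasi-likelihood, adjusted p = 0.870), with a ratio between 0.873 and 1.10. Neither gene was called. Atg2b was the most variable of the 10 genes among WT mice, with a coefficient of variation of 14.4%, against 8.42% among Vps13c-cKO mice. Exons of Atg2b overlap those of Gskip by 383 bases on the opposite strand, and Gskip was counted at 9.43 CPM in Vps13c-cKO ventricles and 9.35 CPM in WT ventricles.

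The 4 remaining genes encode bridge-like proteins known partly from the fly. 4932438A13Rik (Bltp1, ENSMUSG00000037270, chromosome 3) is the mouse counterpart of the fly gene tweek. It had a lowest, median and highest value of 52.4, 56.3 and 60.8 CPM in Vps13c-cKO ventricles, against 52.1, 59.3 and 65.2 CPM in WT ventricles. These ranges overlapped, with a log2 fold change of -0.06 ± 0.05 (SE; edgeR quasi-likelihood, adjusted p = 0.530) and a ratio between 0.893 and 1.03.

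2610507B11Rik (Bltp2, ENSMUSG00000010277, chromosome 11), the counterpart of the fly gene hobbit, had by far the most reads of the 10, with 5216 to 6570 counts in Vps13c-cKO libraries and 5526 to 6466 counts in WT libraries. Its lowest, median and highest values were 415, 439 and 464 CPM in Vps13c-cKO ventricles, against 399, 416 and 445 CPM in WT ventricles. The Vps13c-cKO median lay above the WT median, but the ranges overlapped. The log2 fold change was 0.07 ± 0.03 (SE), with an adjusted p of 0.236 in edgeR's quasi-likelihood test with Benjamini-Hochberg adjustment, and a ratio between 0.998 and 1.10. Without WT 4 the log2 fold change was 0.05, with an adjusted p of 0.378 in the same test.

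The BLTP3 proteins act on endosomes and lysosomes. Uhrf1bp1 (Bltp3a, ENSMUSG00000039512, chromosome 17) had 19.2, 19.5 and 20.6 CPM as lowest, median and highest values in Vps13c-cKO ventricles, against 17.1, 18.6 and 21.3 CPM in WT ventricles. All Vps13c-cKO values lay inside the WT range, and the log2 fold change was 0.07 ± 0.06 (SE; edgeR quasi-likelihood, adjusted p = 0.587) with a ratio between 0.956 and 1.15. Uhrf1bp1l (Bltp3b, ENSMUSG00000019951, chromosome 10) had 36.6, 40.2 and 42.7 CPM in Vps13c-cKO ventricles, against 39.2, 42.2 and 45.6 CPM in WT ventricles. Its log2 fold change was -0.07 ± 0.05 (SE; edgeR quasi-likelihood, adjusted p = 0.420) and its ratio lay between 0.885 and 1.02. Neither was called, and a p that misses the threshold does not show that levels were equal. None of the 9 genes other than Vps13c was called without WT 4 either.

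**Figure D2:**
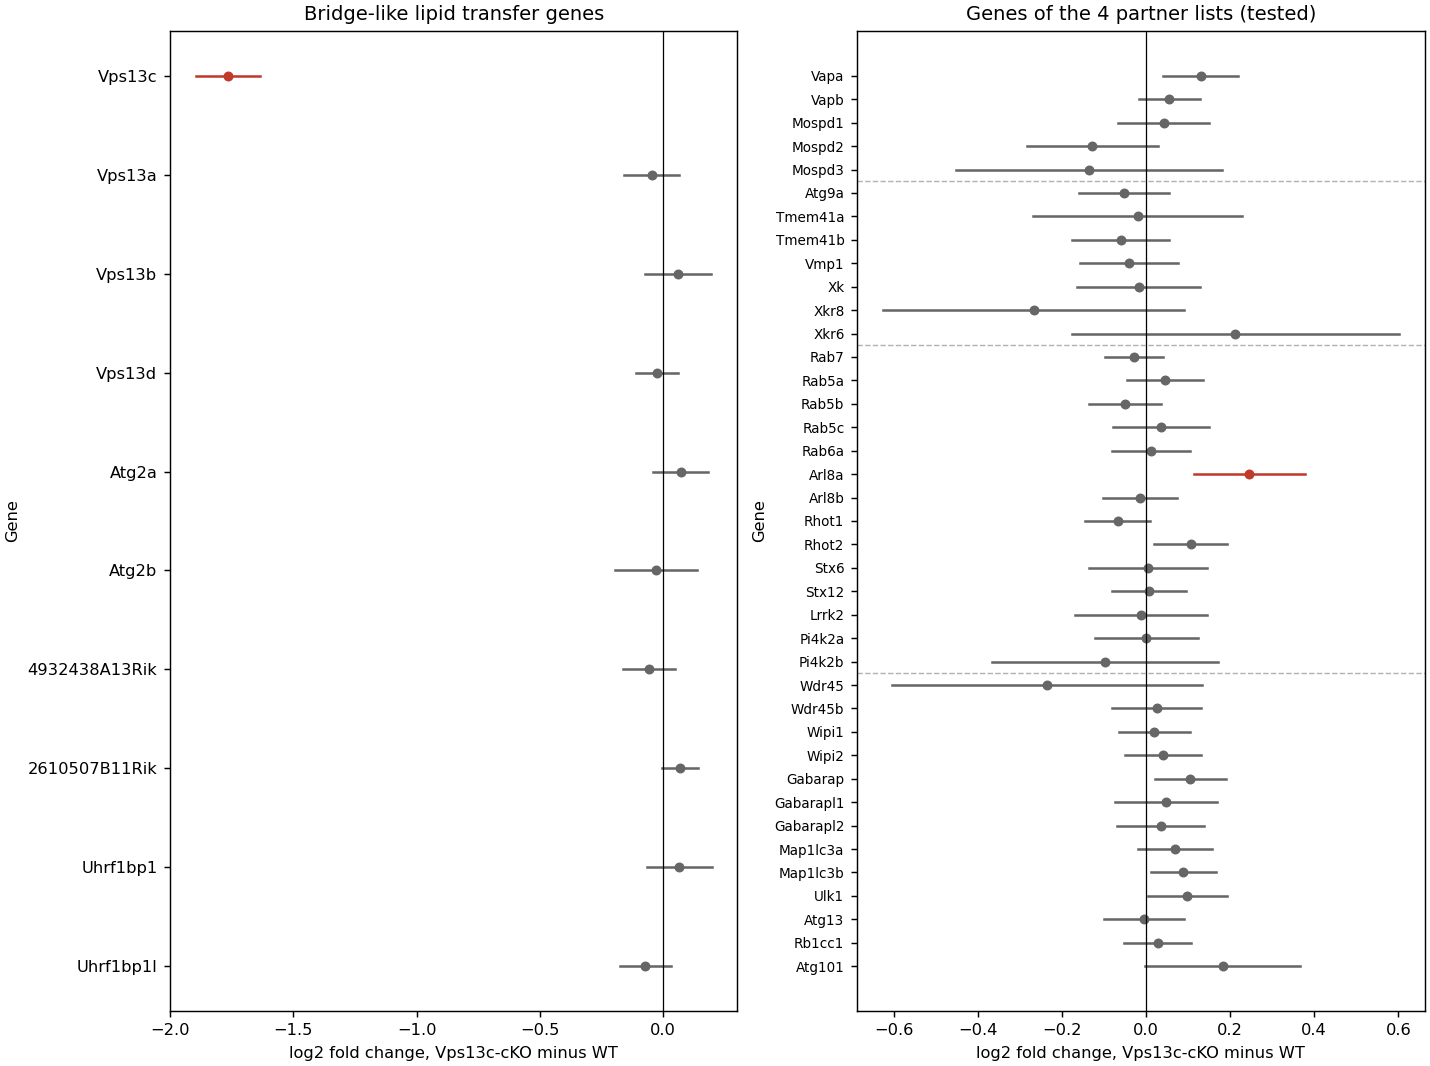
Log2 fold change (Vps13c-cKO minus WT, points) with its 95% confidence interval (lines) over 6 Vps13c-cKO and 6 WT mice, for the 10 bridge-like genes on the left and the tested genes of 4 lists of partners on the right, with called genes in red and dashed lines between the lists. The interval of Vps13c lies between -1.90 and -1.63, those of the other 9 bridge-like genes include 0, and Arl8a is the called partner.

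The ratio of Vps13c reads to the reads of another member within the same mouse needs no scaling between libraries and asks whether the pair changed by different amounts. Each of the 9 ratios was lower in all 6 Vps13c-cKO mice than in all 6 WT mice. The ratios share the reads of Vps13c, the gene knocked out, and none of the other 9 genes was called. They therefore restate the fall of Vps13c and are not 9 separate results. In 2-sided exact permutation tests each gave p = 0.00216, the smallest value that splits of 12 mice into 6 and 6 allow, and Benjamini-Hochberg adjustment over the 9 ratios left that value as it was. The differences of the mean log2 ratios lay between -1.84 for Atg2a, Uhrf1bp1 and 2610507B11Rik and -1.70 for Uhrf1bp1l. Against Vps13a, Vps13c had 0.375 to 0.489 reads for each read in Vps13c-cKO mice, against 1.34 to 1.73 in WT mice. Against Vps13d, the same ratio was 0.116 to 0.141 in Vps13c-cKO mice and 0.418 to 0.468 in WT mice. Vps13c thus had fewer reads than Vps13d in every mouse of both groups, but fewer reads than Vps13a in the Vps13c-cKO mice alone. Against Vps13b, which had the fewest reads per kilobase of merged exon, the ratio was 0.709 to 0.960 in Vps13c-cKO mice and 2.77 to 3.11 in WT mice.

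**Figure D3:**
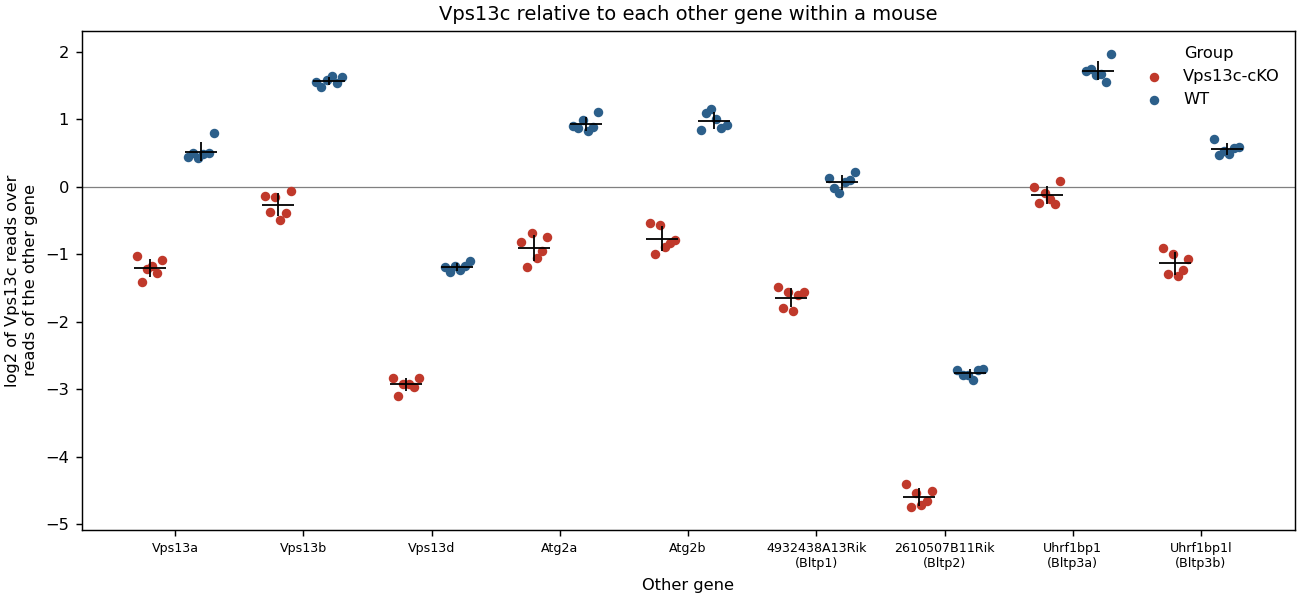
Log2 of Vps13c reads over the reads of each of the other 9 genes within a mouse, for 6 Vps13c-cKO (red) and 6 WT (blue) mice, with the mean as a horizontal bar and ± 1 SD as a vertical line. Every red point lies below every blue point of the same gene, and the difference of means runs from -1.84 to -1.70.

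Levels of different genes were compared as CPM per kilobase of merged exon. 2610507B11Rik stood first in both groups, at 49.98 ± 1.81 CPM per kilobase in Vps13c-cKO ventricles and 47.7 ± 1.80 in WT ventricles (SD, n = 6 each). It lay above 95.8% of tested genes on this scale in Vps13c-cKO ventricles and above 95.6% in WT ventricles. Vps13d came second, at 5.59 ± 0.237 CPM per kilobase in Vps13c-cKO ventricles and 5.68 ± 0.289 in WT ventricles, and its range met no other on this scale. Below it stood Atg2a, with a mean of 4.44 CPM per kilobase in Vps13c-cKO ventricles, where it ranged from 3.94 to 4.83, and a mean of 4.22 in WT ventricles, where it ranged from 3.99 to 4.54. Uhrf1bp1l was close to it, at 4.33 ± 0.262 in Vps13c-cKO ventricles and 4.55 ± 0.241 in WT ventricles. The ranges of Atg2a and Uhrf1bp1l overlapped in both groups by merged exon length. Per kilobase of coding length they did not overlap, and Uhrf1bp1l was the higher in every mouse, at 9.14 CPM per kilobase in Vps13c-cKO ventricles and 9.61 in WT ventricles, where Atg2a was at 5.95 in Vps13c-cKO ventricles and 5.66 in WT ventricles. Whether the pair can be ordered thus depends on the length used.

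Vps13c held the ninth place in Vps13c-cKO ventricles and the fifth in WT ventricles. Its level was 1.12 ± 0.0972 CPM per kilobase of merged exon in Vps13c-cKO ventricles and 3.80 ± 0.298 in WT ventricles, where the median tested gene was at 3.60 in both groups. It thus exceeded 21.6% of tested genes in Vps13c-cKO ventricles and 51.6% in WT ventricles. In Vps13c-cKO ventricles its range overlapped that of Vps13b, the lowest of the 10, which was at 1.03 ± 0.0544 CPM per kilobase there and at 0.985 ± 0.0848 in WT ventricles. In WT ventricles its range overlapped that of Atg2a above it and met none below it by merged exon length. By coding length, however, it ran from 4.86 to 6.10 in WT ventricles. There it overlapped the ranges of Atg2b, Vps13a and Uhrf1bp1 below it, which reached up to 5.88, 5.05 and 4.97. The means of Vps13a, Atg2b, Uhrf1bp1 and 4932438A13Rik lay at 1.76 to 2.35 CPM per kilobase of merged exon in Vps13c-cKO ventricles and 1.83 to 2.43 in WT ventricles. Vps13a was above Atg2b in 4 of 6 Vps13c-cKO mice and 3 of 6 WT mice, and Atg2b above Uhrf1bp1 in 3 of 6 Vps13c-cKO mice and 5 of 6 WT mice. These 3 genes had no settled order, and by coding length Vps13a stood behind Atg2b in both groups and behind Uhrf1bp1 in Vps13c-cKO ventricles. 4932438A13Rik lay below Uhrf1bp1 in all 6 mice of each group by merged exon length.

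The per-length levels of the 10 genes summed to 75.1 ± 2.34 CPM per kilobase in Vps13c-cKO ventricles and 75.7 ± 3.08 in WT ventricles. Vps13c held 1.49% ± 0.133 of this sum in Vps13c-cKO ventricles and 5.01% ± 0.194 in WT ventricles (SD, n = 6 each). Its share ranged from 1.33% to 1.67% in Vps13c-cKO mice and from 4.73% to 5.29% in WT mice, and its WT mean without WT 4 was 5.07%. 2610507B11Rik held 66.5% of the sum in Vps13c-cKO ventricles and 63.0% in WT ventricles. Its share ranged from 65.7% to 67.1% in Vps13c-cKO mice and from 61.9% to 64.1% in WT mice. Shares of the same sum depend on each other, and 2610507B11Rik itself was not called. The other mean shares did not all move in 1 direction. That of Atg2a was 5.91% in Vps13c-cKO ventricles and 5.58% in WT ventricles, and that of Uhrf1bp1l 5.75% and 6.01%. The part of the lower Vps13c share in the share of 2610507B11Rik was not tested. The other 9 genes together came to 74.0 ± 2.33 CPM per kilobase in Vps13c-cKO ventricles, with a range of 70.5 to 77.7. In WT ventricles they came to 71.9 ± 2.78 CPM per kilobase, with a range of 67.4 to 75.4, so the summed level of the other 9 genes overlapped between the groups. With coding length in place of merged exon length, 2610507B11Rik held 58.4% in Vps13c-cKO ventricles and 55.0% in WT ventricles, and Vps13c 1.44% in Vps13c-cKO ventricles and 4.83% in WT ventricles.

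**Figure D4:**
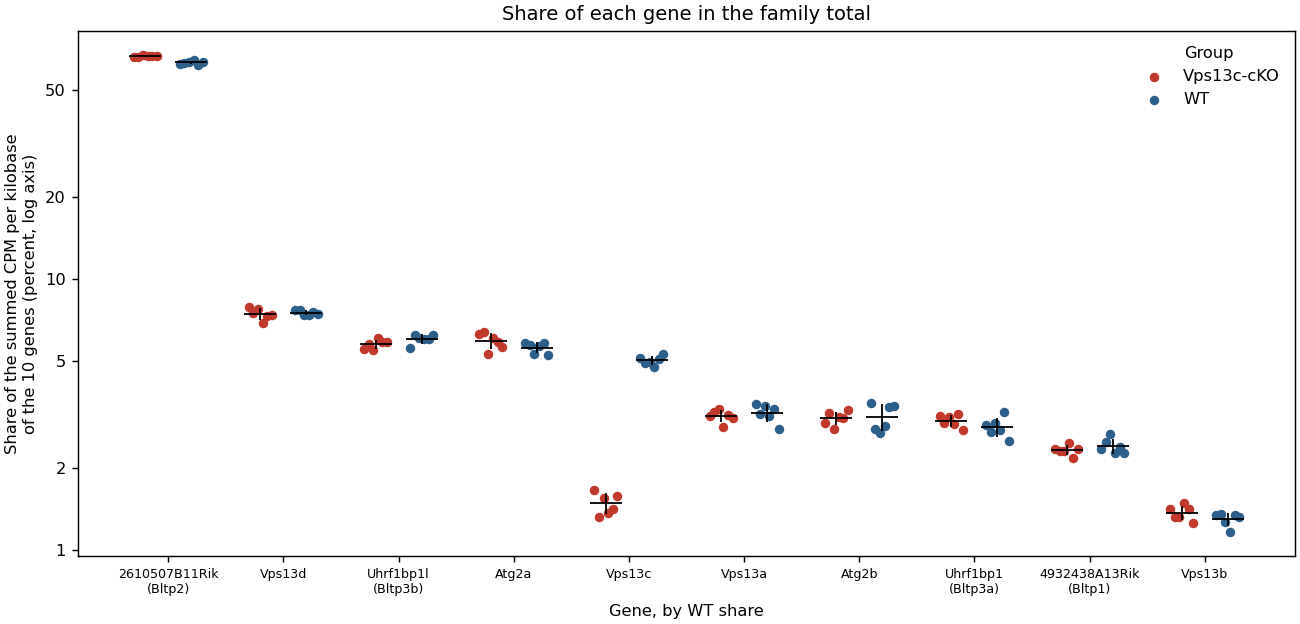
Share (percent) of the summed CPM per kilobase of merged exon held by each of the 10 genes, on a log axis, in 6 Vps13c-cKO (red) and 6 WT (blue) ventricles, 1 point per mouse, with the mean as a horizontal bar and ± 1 SD as a vertical line. 2610507B11Rik holds on average 66.5% in Vps13c-cKO ventricles and 63.0% in WT ventricles, and Vps13c holds 1.49% in Vps13c-cKO ventricles and 5.01% in WT ventricles.

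Promoters of 7 of the 10 genes were found in RefSeq's table for the build GRCm38.p6, and the other 3 were Vps13c, Vps13b and Uhrf1bp1. The 250 bases before the first start listed for each gene were searched on both strands for 5 motifs. Overlapping matches were counted separately. Whether these starts are the ones used in ventricle was not tested. The GC box GGGCGG, which Sp1 family factors bind, was present in 6 of the 7 windows, against 32.9% of 27025 promoters of the same length. The CCAAT box, searched as those 5 letters, was present in 2 of 7, against 34.5% of all promoters. The TATA box, searched as TATAAA, was present in 1 of 7, against 13%. The E-box CACGTG was present in 0 of 7, against 6.05%, and the ETS core CCGGAAG in 0 of 7, against 7.05%. The 7 windows were 54.4% to 78% G or C with 10 to 43 CpG pairs, against medians of 52% and 6 over all promoters. The windows of 2610507B11Rik (chr11:78261504-78261753, plus strand) and 4932438A13Rik (chr3:36862856-36863105, plus strand) are shown because these genes had the highest and the lowest level per length among the 7. Both are given 5′ to 3′ with GC boxes, on either strand, in capitals.
2610507B11Rik: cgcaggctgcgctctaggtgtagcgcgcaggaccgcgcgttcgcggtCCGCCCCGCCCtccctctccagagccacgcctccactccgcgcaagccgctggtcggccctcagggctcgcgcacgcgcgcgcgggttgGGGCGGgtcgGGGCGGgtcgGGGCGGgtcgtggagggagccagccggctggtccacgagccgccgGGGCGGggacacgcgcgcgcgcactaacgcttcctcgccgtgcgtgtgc
4932438A13Rik: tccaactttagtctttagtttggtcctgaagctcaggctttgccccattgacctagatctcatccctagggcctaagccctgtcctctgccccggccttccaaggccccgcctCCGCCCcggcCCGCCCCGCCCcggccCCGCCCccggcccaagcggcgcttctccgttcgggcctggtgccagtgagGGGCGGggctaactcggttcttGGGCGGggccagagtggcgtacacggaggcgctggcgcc
Each window held 6 GC boxes, at 49.98 CPM per kilobase for 2610507B11Rik and 1.76 for 4932438A13Rik in Vps13c-cKO ventricles, and at 47.7 and 1.83 in WT ventricles. The pair thus had the same number of matches at very different levels, and a match of letters is no evidence of binding.

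Of the genes on 4 lists of proteins that work with the bridges, 1 passed the test, where 10.7% of all tested genes were called. With 5 to 14 tested genes on a list, 0 or 1 calls cannot be set apart from that share. The VAP family holds bridges at the endoplasmic reticulum through a short peptide motif, and 0 of its 5 genes were called, with a median log2 fold change of 0.04. Closest to the threshold was Vapa, at 76.8 ± 3.32 CPM in Vps13c-cKO ventricles and 70.2 ± 3.77 CPM in WT ventricles, with a log2 fold change of 0.13 ± 0.04 (SE; edgeR quasi-likelihood, adjusted p = 0.0572). Its lowest, median and highest values were 71.6, 76.4 and 81.0 CPM in Vps13c-cKO ventricles, against 66.3, 70.0 and 77.2 CPM in WT ventricles, and the highest WT value was that of WT 4. Without WT 4 Vapa was called, with an adjusted p of 0.0151, the lowest over all alternatives, whose highest was 0.145. Vapb had a log2 fold change of 0.06 ± 0.04 (adjusted p = 0.367) and Mospd2, another VAP-like protein, one of -0.13 ± 0.07 (adjusted p = 0.321).

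Scramblases and related membrane proteins at the bridge ends gave 0 calls among 7 tested of 10 listed, with a median log2 fold change of -0.04. Atg9b, Xkr4 and Xkr9 did not pass the filter on low counts. Xkr8, a scramblase activated in dying cells, had the smallest p, with a log2 fold change of -0.27 ± 0.17 (adjusted p = 0.380, edgeR quasi-likelihood), at 1.36 to 1.98 CPM in Vps13c-cKO ventricles and 1.53 to 2.49 CPM in WT ventricles. Xkr6 followed with 0.21 ± 0.19 (adjusted p = 0.544), and Tmem41b, a scramblase of the endoplasmic reticulum, with -0.06 ± 0.06 (adjusted p = 0.570). Xk, the partner of VPS13A, averaged 19.8 CPM in Vps13c-cKO ventricles and 20.1 CPM in WT ventricles.

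Among receptors and recruiters on the target organelles, 14 of 15 genes were tested, 1 was called higher and 0 lower, with a median log2 fold change of 0.00. Fam177a had 0 counts in all 12 libraries. The called gene was Arl8a, a small GTPase that marks lysosomes and couples them to motors. Arl8a had 18.2, 19.4 and 21.5 CPM as lowest, median and highest values in Vps13c-cKO ventricles, against 15.3, 17.0 and 17.2 CPM in WT ventricles. All 6 Vps13c-cKO values lay above all 6 WT values, and Arl8a rose by 0.25 ± 0.06 on the log2 scale (SE; edgeR quasi-likelihood, adjusted p = 0.0143). Over the alternatives its adjusted p lay between 0.0109 and 0.0415. As 10.7% of all tested genes were called, 1 call among 14 genes is a share near the background. Rab7, the late endosomal GTPase that recruits VPS13C, averaged 199 CPM in Vps13c-cKO ventricles and 203 CPM in WT ventricles. Lrrk2, a kinase altered in Parkinson's disease, had a log2 fold change of -0.01 ± 0.08. The Miro genes of the VPS13D receptor were not called, with 0.11 ± 0.04 for Rhot2 (adjusted p = 0.114) and -0.07 ± 0.04 for Rhot1 (adjusted p = 0.289). Exons of Rhot2 overlap those of Gm20683 by 1307 bases on the same strand, and reads from the overlap cannot be assigned to 1 of these genes.

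The 13 partners of ATG2 at the forming autophagosome were all tested and 0 were called, with a median log2 fold change of 0.04. The smallest p belonged to Gabarap, which encodes a protein conjugated to lipid on autophagosomes, with a log2 fold change of 0.11 ± 0.04 (SE; edgeR quasi-likelihood, adjusted p = 0.108). Gabarap had 132 to 145 CPM in Vps13c-cKO ventricles and 119 to 137 CPM in WT ventricles. Map1lc3b, which encodes an LC3 protein of the same family, had a log2 fold change of 0.09 ± 0.04 (adjusted p = 0.140) and the kinase gene Ulk1, which starts autophagy, 0.10 ± 0.05 (adjusted p = 0.188).

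The 5 genes on either side of Vps13c on chromosome 9 were examined by gene order. Next to it, C2cd4a had 1 read over the Vps13c-cKO libraries and 0 over the WT libraries, and C2cd4b had 3 reads over the Vps13c-cKO libraries and 1 over the WT libraries, so neither could be tested, nor could Foxb1, which had 0 reads in both groups. Of the 7 tested neighbours 1 was called, Tpm1, the tropomyosin gene of the sarcomere, where 10.7% of all tested genes were called and 4.93% had groups that did not overlap, so the count is near the background. Tpm1 averaged 5824 ± 116 CPM in Vps13c-cKO ventricles and 6511 ± 233 CPM in WT ventricles (SD, n = 6 each), with no overlap. It fell by 0.16 ± 0.03 on the log2 scale, with an adjusted p of 0.000610 in edgeR's quasi-likelihood test. The nearest tested gene on the other side, Rora, a nuclear receptor gene, had a log2 fold change of -0.06 ± 0.06 (adjusted p = 0.610). The remaining neighbours Lactb, Tln2, Ice2, Anxa2 and Bnip2 had log2 fold changes of -0.05 to 0.11 and were not called.

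The genes most like Vps13c over the 12 mice were ranked by the root-mean-square difference of their log2 levels from that of Vps13c, each taken from its own WT mean, among 11275 genes. Nearest was Clcn1, the chloride channel gene of skeletal muscle, at 0.476, where 0 would be the same pattern. Clcn1 had 2.94, 4.03 and 4.92 CPM as lowest, median and highest values in Vps13c-cKO ventricles, against 7.15, 9.07 and 11.5 CPM in WT ventricles. It was separated between the groups as Vps13c was, with a log2 fold change of -1.21 ± 0.13. Then came Nr4a3, an orphan nuclear receptor gene, at 0.516, with 6.43 CPM in Vps13c-cKO ventricles and 16.9 CPM in WT ventricles. Maob, which encodes a monoamine oxidase of the outer mitochondrial membrane, stood at 0.626, with 28.5 CPM in Vps13c-cKO ventricles and 53.0 CPM in WT ventricles. Pfkfb1 and Acot1, which encode enzymes of glycolysis control and of acyl-CoA hydrolysis, stood at 0.675 and 0.699, each with a log2 fold change of -0.86. As the distance is taken from the WT mean, it reads the difference between the groups as well as the variation between mice. Lower Vps13c-cKO levels of the 5 genes therefore follow from how they were chosen and are no separate result. The median distance over the compared genes was 1.25. Acot1 has close copies in the genome, among which reads may be split.

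Within each group the 10 genes varied by small amounts. Coefficients of variation of the CPM over the 6 mice ran from 2.89% for Uhrf1bp1 to 8.71% for Vps13c among Vps13c-cKO mice, and from 3.77% for 2610507B11Rik to 14.4% for Atg2b among WT mice. In WT 4 the log2 deviation from the WT mean had a median of -0.13 over the 10 genes and lay between -0.25 and -0.07. No other mouse was below its group mean for all 10 genes. WT 4 was also the library with the atrial transcripts and with the highest mitochondrial share of the WT libraries, 31.4%, and the part of either in the lower values was not tested. Without WT 4 the log2 fold change of each of the 10 genes was lower, and Vps13c was again the only one called.

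**Figure D5:**
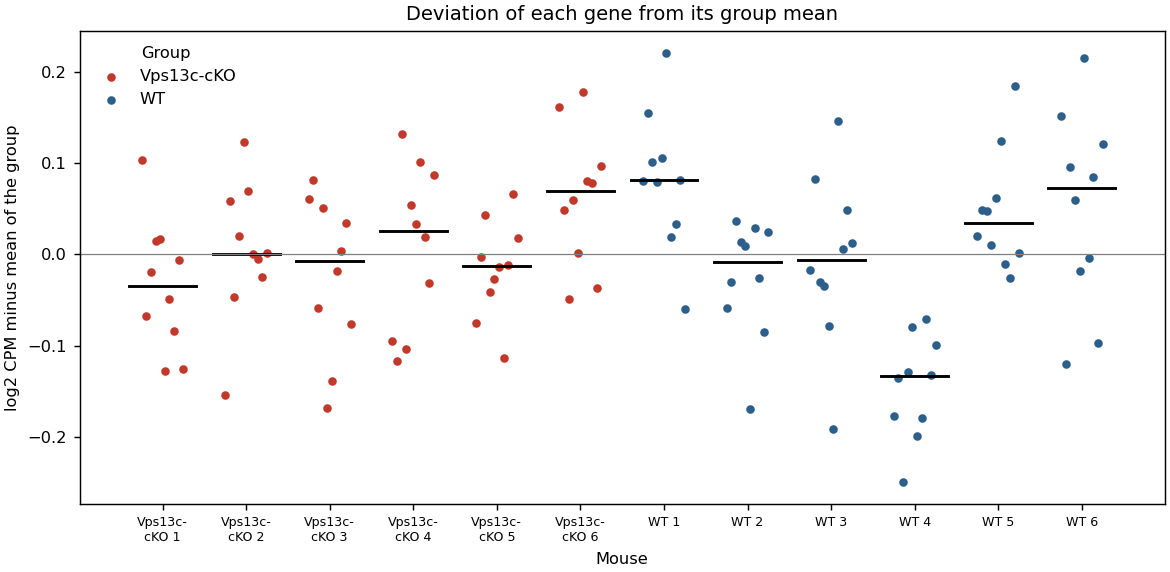
Log2 deviation of the CPM of each of the 10 genes from its group mean, by mouse, for 6 Vps13c-cKO (red) and 6 WT (blue) ventricles, 1 point per gene, with the median over the 10 genes as a bar. In WT 4 all 10 genes lie below 0, between -0.25 and -0.07, which holds for no other mouse.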

How the data were processed

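RNA of 12 ventricles was measured by sequencing of poly-A selected mRNA, fragmented and copied from random primers, per the labels' protocols. What the authors deposited are raw read counts, 1 whole number for each gene in each mouse, as the file headers say. As tools, the submitters' processing notes list HTSeq 0.9.1, HISAT2 2.1.0 and fastp 0.22.0, and as build GRCm39. No source used here states the gene annotation or whether strand was used in counting, and the protocol mentions no strand marking and no molecular identifiers, so reads are not independent molecules.

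Groups and replicate numbers came from the sample titles, and 0 sample columns were left unused. Names, gene order and lengths came from GENCODE M21, an annotation of GRCm38, which covers 21902 of the 21959 gene IDs, so no coordinates are given except for promoters. Between replicates the chi-square per gene was 3.11 to 5.62, so none was treated as a repeat. Counts were scaled by TMM factors (0.978 to 1.01), filtered with filterByExpr and tested over 12384 genes with edgeR 4.0.16 under R 4.3.3 (quasi-likelihood F test, 2-sided), with Benjamini-Hochberg adjustment and calls at an adjusted p under 0.05. The procedure was tested on simulated data. CPM are counts per 1000000 of the TMM-scaled library size. Log2 count ratios within a mouse were compared by exact permutation tests. Alternatives were other size factors and filters, limma-voom (limma 3.58.1), DESeq2 1.42.0, a replicate block, leaving out each mouse, a ratio pseudocount of 10 counts, and coding length, taken from the same annotation.

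The 10 genes, the partner and marker lists and the rule for other named genes were chosen with earlier results of these data known. The rule named every called gene on a partner list, the 3 with the smallest p where fewer were called, the 10 neighbours of Vps13c and the 5 genes most like it. Xk, Rab7, Lrrk2, Nppa, Myl4 and the other markers with values were named beside it, after their values were seen. The p-values set the difference between the groups against the spread between these mice.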

Additional observations from a re-analysis of the deposited data

Results flagged for a closer look

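In 8 of 144 groups of 6 mice examined, 1 mouse lay far from the other 5, and chance alone gives about 1 such group in 20. Of the bridge-like genes this held for the log2 ratio of Vps13c to Vps13a in WT 6, which was 0.79 against 0.42 to 0.49 in the other WT mice. In partners of the VAP family, Vapa was at 77.2 CPM in WT 4 against 66.3 to 70.2 CPM in the other WT mice. Vapb was at 102.1 CPM in WT 1 against 108 to 110.0 CPM, and Mospd3 at 3.14 CPM in WT 6 against 4.55 to 5.38 CPM in the other WT mice. Among the scramblases, Tmem41a was at 7.26 CPM in WT 5 against 6.08 to 6.33 CPM, and Tmem41b at 35.5 CPM in WT 2 against 39.5 to 40.9 CPM in the other WT mice. Gabarapl2, an ATG2 partner, was at 58.9 CPM in Vps13c-cKO 2 against 49.8 to 53.1 CPM in the other Vps13c-cKO mice. Tln2, a neighbour of Vps13c, was at 102.2 CPM in WT 4 against 118 to 126 CPM in the other WT mice.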

How the results depend on the processing

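Over 19 alternatives the log2 fold change of Vps13c lay between -1.80 and -1.74, with adjusted p-values of 1.61e-137 to 6.26e-13, and 1 bridge-like gene was called lower and 0 higher in each. The other 9 genes were called in none of the 19, and their lowest adjusted p was 0.142, for 2610507B11Rik. The direction of Atg2b reversed when WT 1 or WT 6 was left out, to 0.014 and 0.010, and over the fits without 1 mouse it ran from -0.070 to 0.014; the cause was not tested. The count of VAP family genes called higher was 1 with a minimum mean of 5 CPM, where fewer genes are tested, and 0 to 1 over the fits without 1 mouse, where Vapa was called without Vps13c-cKO 2 or without WT 4. Among all tested genes 561 to 760 were called higher and 504 to 672 lower over the alternatives, against 700 and 631. Vps13c ranked at 10 by coding length in Vps13c-cKO ventricles, in place of 9. By coding length the order of Atg2a and Uhrf1bp1l changed in Vps13c-cKO ventricles, and that of Vps13a and Atg2b in both groups. The 9 ratios share the reads of Vps13c, and each stood at the smallest p its test allows in every alternative, so their calls say nothing about stability.

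Same-numbered mice did not deviate together, with correlations of -0.0396 to 0.0618, and 1 of the 6 Vps13c-cKO mice correlated best with its own number. With the replicate number as a block Vps13c had a log2 fold change of -1.77, and 687 genes were called higher and 625 lower. A sign-flip test over the 6 same-numbered pairs gave p = 0.0312 for each ratio, the smallest such an exact test allows. Vps13c rests on 212 to 287 reads in Vps13c-cKO libraries. The widest intervals of the other 9 genes reached down to a ratio of 0.873 for Atg2b and up to 1.15 for Uhrf1bp1, and changes inside such an interval were not resolved with 6 mice a group.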
